A study of Mus musculus with 23 samples.

Results

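SET knockout (KO) and wild-type (WT) mouse embryonic stem cells (ESCs) were compared after 4 d of retinoic acid (RA). The samples were chosen by title. They were the R1 cells of the second titled set that carried the RA label, 2 KO samples (title codes 2h and 2i) and 1 WT sample (2g), 3 of the 19 samples of the series. R1 is a male mouse ESC line. Both KO samples had the genotype label SET-/- and were titled KO1. The label of the WT sample gave wild type, and the WT side of every comparison after RA is this single library. The untreated samples of the same set were 4 KO samples (2c and 2d titled KO1, 2e and 2f titled KO2) and 2 WT samples (2a and 2b). Cultures were described as kept on mouse embryonic fibroblast feeders in medium with serum and LIF, the cytokine that maintains ESCs. The sources used here do not give how feeders or LIF were handled during RA. The series also held other R1 cells and KH2 cells, which entered no comparison here. Polyadenylated RNA was measured by QuantSeq, which reads 1 tag near the 3′ end of a transcript. Counts per gene summed to 5047363 (2h), 4900428 (2i) and 3904924 (2g), and to between 2833064 and 10217040 in untreated samples. The labels name no separate cultures, and the p-values cover no more than sample-to-sample spread, part or all of which may be technical.

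Retinoic acid enters the nucleus and binds receptor dimers that sit on paired short repeats in DNA, and it drives ESCs out of pluripotency. In monolayer or aggregate culture, the cells that follow include neural and neural crest types, with Hox genes switched on, and extraembryonic endoderm. Parietal endoderm, one such extraembryonic type, secretes the laminin and type IV collagen of a thick basement membrane and expresses GATA and SOX factors. SET is a histone chaperone and an inhibitor of the phosphatase PP2A. The series title places SET in differentiation through p53 and β-catenin, and the samples after RA address whether the KO differs from WT once differentiation has begun.

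Set (ENSMUSG00000054766, GRCm38 chromosome 2, 30057378 to 30072577, plus strand) was counted at 259 and 176 CPM in the KO samples after RA and at 540 CPM in the WT sample. CPM are counts scaled to library size with TMM factors, and serve here to compare 1 gene between samples. KO over WT gave a log2 fold change of -1.31 (SE 0.20, edgeR adjusted p = 0.00518). Before RA, Set stood at 506, 551, 382 and 268 CPM in KO and at 1175 and 1360 CPM in WT. The transcript was thus reduced and not absent under both conditions, and a 3′ tag outside an edited exon does not check the lesion itself. The RA label showed in the profiles. In WT, 20 of 22 tested Hox genes were called higher and 0 lower in the RA sample than in untreated samples (median log2 4.09). Of 34 core and naive pluripotency genes, 33 were called lower and 0 higher (median log2 -3.11). Over all 14659 tested genes 47.3% were called in that comparison, 24.8% higher and 22.5% lower. Nanog, a pluripotency factor, stood at 11.7 and 12 CPM in KO after RA and 10.4 CPM in WT after RA, against 117 and 142 CPM in untreated WT. The ESC label of the 3 RA samples thus names the starting cell.

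The 2 KO samples after RA differed in their Y-linked transcripts. Ddx3y, Eif2s3y and Uty summed to 83.8 CPM in 2h and 8.24 CPM in 2i, against 124 CPM in the WT sample. Untreated libraries held 55.5 to 65.4 CPM in KO1 (3 libraries), 8.60 to 15.6 CPM in KO2 (3 libraries) and 83.5 to 117 CPM in WT (4 libraries). Sample 2i, titled KO1, thus stood below all untreated KO1 libraries and just below the lowest untreated KO2 library, and 2h stood above the KO1 libraries. The clone code attached to the deposited counts of 2i is also that of untreated KO2, while the code of 2h is that of KO1. The title and the code of 2i therefore disagree, and both samples were kept in the KO group, which their genotype label gives. Outside the Y chromosome the 2 samples were close. Among 5216 genes with a mean log2(CPM + 1) over 5, the SD of the log2 ratio was 0.18 for 2h over 2i, 0.23 for 2h over WT and 0.25 for 2i over WT. In that set 1 gene differed over 2-fold between 2h and 2i, while 16 and 18 did between 2h or 2i and WT. That gene was the imprinted Peg3, at 1349 and 2708 CPM in KO and 1618 CPM in WT.

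**Figure D1:**
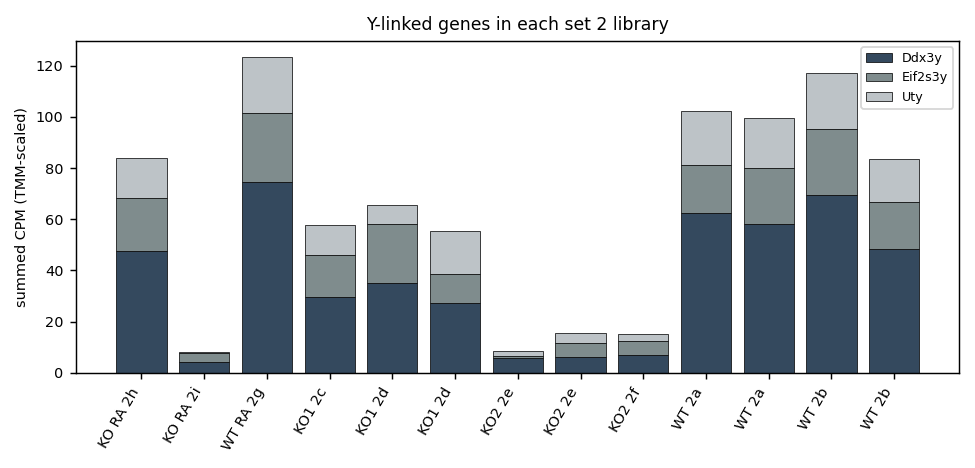
Summed TMM-scaled CPM (vertical axis) of the Y-linked genes Ddx3y, Eif2s3y and Uty in each of the 13 set 2 libraries, named by group and title code along the horizontal axis. KO sample 2i stands at 8.24 CPM, below every untreated KO1 library, and 2h stands at 83.8 CPM.

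After RA, 58 of 14659 genes were called between KO and WT (adjusted p under 0.05, 0.396% of the genes tested). The KO was higher for 42 (0.287%) and lower for 16 (0.109%), and 35 changed over 2-fold, 24 of them higher and 11 lower. The genes called higher included laminin and collagen IV chains, endoderm transcription factors and H19, and those called lower included regulators of neural crest and neural development. At an unadjusted p under 0.05 there were 929 genes. The count was 34 without 2h (28 of the 58 among them) and 15 without 2i, all 15 among the 58. With every library as its own sample it was 8, all among the 58, and with a sub-batch of the untreated libraries, taken from their profiles, added to that fit it was 55, of which 48 were among the 58. No fit could leave out the WT library, so its own deviation and the WT level cannot be told apart. In bulk RNA, fewer cells of a type and less RNA per cell cannot be told apart either.

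Laminin and type IV collagen genes of the basement membrane were among those called higher. Lama1 (chromosome 17, 67697259 to 67822647), which encodes the α1 chain of laminin, stood at 103 and 84.7 CPM in KO and 26.1 CPM in WT. Its log2 fold change was 1.85 (SE 0.23, 95% interval 1.38 to 2.32, edgeR adjusted p = 8.24e-05). Both KO samples exceeded the WT sample over 3-fold, and also every untreated sample, where KO held 48.4 to 66.0 CPM and WT 40.8 and 33.3 CPM. The β1 chain gene Lamb1 (chromosome 12, 31265234 to 31329644) had 832 and 737 CPM in KO and 413 CPM in WT (log2 0.92, SE 0.15, adjusted p = 0.00194). Lamc1, for the γ1 chain that completes this laminin, had 344 and 341 CPM in KO and 202 CPM in WT (log2 0.76, SE 0.15, adjusted p = 0.00882). All 3 chain genes of the trimer were called, with the highest log2 fold change for the α1 chain, but Lamc1 lost its call without 2h (adjusted p = 0.0887) and without 2i (adjusted p = 0.121), and its range over the alternatives reached 0.396. The type IV collagen genes lie head to head on chromosome 8. Col4a1 (11198423 to 11312826) stood at 652 and 595 CPM in KO and 314 CPM in WT (log2 0.99, SE 0.15, adjusted p = 0.0013). Col4a2 had 203 and 175 CPM in KO and 98.5 CPM in WT (log2 0.94, SE 0.20, adjusted p = 0.0303). The Col4a2 call held in 11 of 19 alternative analyses and was lost without 2h (adjusted p = 0.336) and without 2i (adjusted p = 0.121), with a highest value of 0.543. P4ha2, a catalytic subunit of the prolyl hydroxylase that modifies collagen, was also called, at 129 and 131 CPM in KO and 65.1 CPM in WT (log2 1.00, adjusted p = 0.0199), and lost its call without 2h or 2i. Other matrix genes of the endoderm list did not pass. Sparc, a secreted collagen-binding protein gene, had 3799 and 3969 CPM in KO and 3195 CPM in WT (log2 0.28, adjusted p = 0.808). Nid1, which encodes the laminin linker nidogen, had a log2 fold change of 0.28 (adjusted p = 0.924), and Serpinh1, for a collagen chaperone, one of -0.08 (adjusted p = 0.984).

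**Figure D2:**
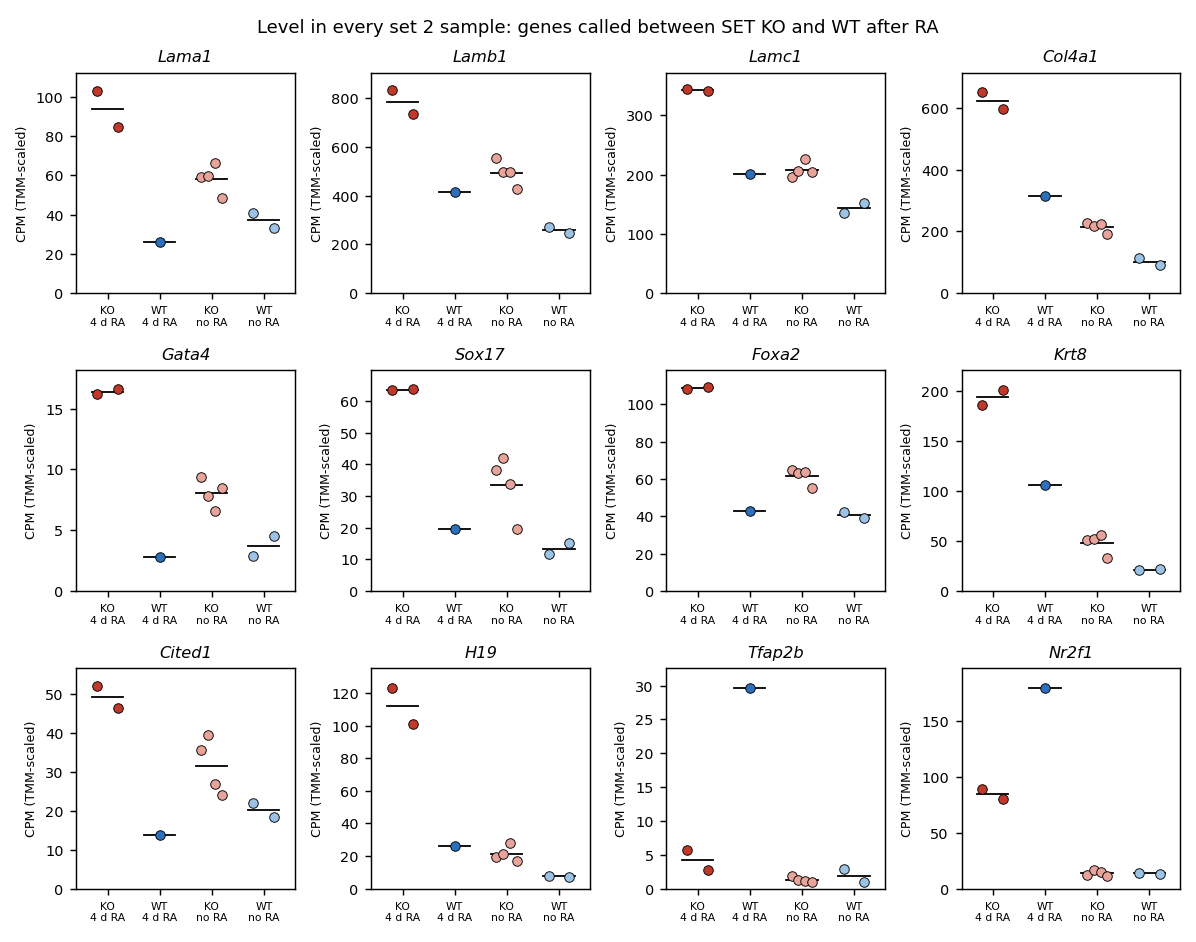
TMM-scaled CPM (vertical axes, from 0) of 12 called genes in every set 2 sample, with KO and WT after 4 d RA and KO and WT without RA from left to right; points are samples (n = 2, 1, 4 and 2) and bars are group means. For the laminin, collagen, GATA, SOX and FOX genes both KO samples after RA lie above the single WT sample after RA, and for Tfap2b and Nr2f1 both lie below it.

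Transcription factor genes of the endoderm list were also called higher. Gata4 (chromosome 14, 63198922 to 63271692), which directs primitive and parietal endoderm, had 16.2 and 16.6 CPM in KO and 2.79 CPM in WT, from 85, 83 and 11 counts. Its log2 fold change was 2.55 (SE 0.46, 95% interval 1.61 to 3.49, edgeR adjusted p = 0.00478). The WT value rests on those 11 counts, the interval is wide, and the call was lost without 2i (adjusted p = 0.0621, with values up to 0.114 over the alternatives). Sox17 (chromosome 1, 4490931 to 4497354), an endoderm factor gene, stood at 63.4 and 63.7 CPM in KO and 19.5 CPM in WT (log2 1.70, SE 0.27, adjusted p = 0.00149). Foxa2 (chromosome 2, 148042877 to 148046969), a pioneer factor gene of endoderm and of the node, stood at 108 and 109 CPM in KO and 43.0 CPM in WT (log2 1.33, SE 0.19, adjusted p = 0.000436). The 2 KO samples agreed closely for all 3 genes and lay above the WT sample, a side that the naming rule required. Foxq1, a forkhead factor gene, had 82.7 and 101 CPM in KO and 37.5 CPM in WT (log2 1.29, adjusted p = 0.00221). Members with the same sign that did not pass included Sox7, a relative of Sox17 in endoderm (log2 1.79, adjusted p = 0.12) and Pdgfra, a receptor of primitive endoderm (log2 1.36, adjusted p = 0.0612). Gata6, which acts upstream of Gata4 in primitive endoderm, stood at 106 and 124 CPM in KO and 85.6 CPM in WT (log2 0.43, SE 0.19, adjusted p = 0.678).

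Over the parietal, primitive and visceral endoderm list, 10 of 34 tested members were called higher and 0 lower, where 0.287% of all tested genes were called higher. The median log2 fold change of the list was 0.67, against -0.006 over all tested genes, and 29 of 34 values were positive. Before RA, 21 of the 34 were called higher in KO and 0 lower, with a median of 0.70, where 5.98% of all tested genes were called higher. The list was put together with earlier results of these data known, and Lama1 was given as a marker of this comparison from them, so its count is not independent evidence of its direction. Genes of mature visceral endoderm were near 0. Ttr had 0, 2 and 2 counts, Afp 3, 2 and 3, Apoa1 1, 0 and 1, Hnf4a 1, 1 and 0, and Apob 0, 0 and 0 in 2h, 2i and WT. The members called higher were laminin, collagen IV, P4ha2 and early factor genes, and these markers were too low to compare at this depth. Markers of feeder fibroblasts, which also make laminin and collagen IV, gave 0 of 32 called in edgeR after RA (7 at an unadjusted p under 0.05, median log2 0.15). Summed over the list they stood at 9977 and 11905 CPM in KO and at 10425 CPM in WT. The fibrillar collagen gene Col1a1 had 368 and 362 CPM in KO and 372 CPM in WT, and of the fibroblast markers Lum and Col6a2 were near 0 in all 3 samples. Without RA, the same sum was 1718 to 2429 CPM in KO and 1150 and 1355 CPM in WT. The part of fibroblast RNA in the called genes was not tested beyond these levels.

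Sequence before starts of Foxa2 and Tfap2b is shown because these transcription factor genes moved in opposite directions after RA, and that of Cyp26a1 because it holds the letters that RA receptors bind. Each line gives 250 bases before a RefSeq transcript start (GRCm38.p6), read 5′ to 3′ on the gene's strand, with motif matches in capitals.
Foxa2, chr2:148045465-148045714, minus strand: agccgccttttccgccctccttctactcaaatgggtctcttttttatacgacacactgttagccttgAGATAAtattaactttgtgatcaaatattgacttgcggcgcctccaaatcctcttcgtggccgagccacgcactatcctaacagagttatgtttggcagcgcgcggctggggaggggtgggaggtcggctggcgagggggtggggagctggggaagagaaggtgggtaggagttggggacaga
Tfap2b, chr1:19211804-19212053, plus strand: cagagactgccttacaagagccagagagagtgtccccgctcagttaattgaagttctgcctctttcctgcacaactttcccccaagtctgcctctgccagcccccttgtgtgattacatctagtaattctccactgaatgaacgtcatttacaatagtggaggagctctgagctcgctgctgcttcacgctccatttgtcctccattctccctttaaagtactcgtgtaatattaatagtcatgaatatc
Cyp26a1, chr19:37697558-37697807, plus strand: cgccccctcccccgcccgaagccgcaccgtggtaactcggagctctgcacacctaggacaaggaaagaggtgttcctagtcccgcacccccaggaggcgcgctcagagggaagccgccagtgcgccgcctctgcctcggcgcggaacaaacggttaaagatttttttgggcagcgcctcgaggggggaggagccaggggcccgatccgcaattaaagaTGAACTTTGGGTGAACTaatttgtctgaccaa
The capitals in Foxa2 mark the letters AGATAA of a motif for GATA factors, 183 to 178 bases before the last of its 3 listed starts. That window lies within the gene's span and overlaps no exon, and the windows of the other 2 starts hold no match. The GATA search took AGATAA on both strands, and likewise TGATAA, and matched 16.6% of 32851 promoter windows. It matched 4 of the 30 genes called higher that have a window in the table (2010204K13Rik, Foxa2, Krt8 and Pcgf5), 1 of 12 called lower and 10.7% of all tested genes with a window, so the called genes stood near the background. In Cyp26a1 the capitals mark TGAACTTTGGGTGAACT, 32 to 16 bases before the start. This search took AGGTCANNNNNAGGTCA, AGGTCANNNNNAGTTCA, AGTTCANNNNNAGGTCA and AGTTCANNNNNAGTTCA, on both strands, and matched 11 windows (0.0335%). Tfap2b has neither match in the window shown. Of the 58 called genes, 42 had a window in the RefSeq table.

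Some genes of epithelial cells were called higher as well. Krt8 (chromosome 15, 101996698 to 102004482), a keratin of simple epithelia, stood at 186 and 201 CPM in KO and 106 CPM in WT (log2 0.87, SE 0.20, edgeR adjusted p = 0.0438). The call is marginal and held in 9 of 19 alternative analyses. Its partner Krt18 had 287 and 324 CPM in KO and 222 CPM in WT (log2 0.46, adjusted p = 0.66), and Krt19 had 73.7 and 87.2 CPM in KO and 48.4 CPM in WT (log2 0.73, adjusted p = 0.284). Neither Krt18 nor Krt19 passed the test. Cldn6, a tight junction claudin gene, stood at 142 and 169 CPM in KO and 75.4 CPM in WT (log2 1.04, SE 0.19, adjusted p = 0.00434). Epcam, for an epithelial adhesion molecule, had 79.3 and 78.5 CPM in KO and 45.1 CPM in WT (log2 0.81, adjusted p = 0.0303). Amot, whose product angiomotin binds the coactivator YAP at junctions, had 140 and 152 CPM in KO and 87.8 CPM in WT (log2 0.73, adjusted p = 0.0303). The Cldn6 call held in 16 of 19 alternative analyses, and those of Epcam and Amot in 13 of 19. The calls of Krt8, Cldn6, Epcam and Amot were all lost without 2i, and all but that of Cldn6 also without 2h. Over the list of trophoblast and simple epithelial keratin genes, 2 of 17 were called higher (Krt8 and Cited1) and 0 lower, with a median log2 of 0.46. Cited1 was a given marker of this comparison from earlier results of these data, so that count is not independent evidence. Over all tested genes 0.287% were called higher.

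Cited1 (X chromosome, 102247381 to 102252181), a coactivator gene expressed in trophoblast and early mesoderm, stood at 52.1 and 46.5 CPM in KO and 13.9 CPM in WT (log2 1.82, SE 0.26, edgeR adjusted p = 0.000436). H19 (chromosome 7, 142575529 to 142578143), an imprinted noncoding RNA abundant in extraembryonic endoderm and mesoderm, stood at 123 and 101 CPM in KO and 26.3 CPM in WT. Its log2 fold change was 2.09 (SE 0.24, 95% interval 1.58 to 2.59, adjusted p = 5.67e-05), the smallest adjusted p of the comparison. For both genes untreated samples were also higher in KO, with H19 at 17.2 to 28 CPM in KO and 7.65 and 7.18 CPM in WT. H19 and Lama1 were called in all 19 alternative analyses, and Cited1 and Foxa2 in 18. Igf2, the imprinted neighbour of H19, had 1, 2 and 1 counts in 2h, 2i and WT and was not tested. Of 29 tested imprinted genes 1 was called higher (H19) and 1 lower (Grb10), with a median log2 of -0.06. H19 was a given marker of this comparison from earlier results of these data, so its call in the list is not independent evidence. The shares over all tested genes were 0.287% higher and 0.109% lower. Grb10, which encodes an adaptor that restrains insulin and IGF receptor signalling, had 321 and 304 CPM in KO and 588 CPM in WT (log2 -0.91, SE 0.15, adjusted p = 0.0026). The imprinted genes Dlk1 (log2 -0.24), Meg3 (log2 -0.01) and Cdkn1c (log2 -0.53) did not pass, and were chosen after their values were seen.

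The remaining genes called higher over 2-fold by the naming rule had varied roles. Hs3st1, for a heparan sulfate sulfotransferase, stood at 88.8 and 92.0 CPM in KO and 26.3 CPM in WT (log2 1.78, edgeR adjusted p = 0.00353). Srgn, which encodes the proteoglycan core serglycin, had 13.2 and 11.4 CPM in KO and 2.53 CPM in WT (log2 2.27, adjusted p = 0.014). Hkdc1, a hexokinase family gene, had 13.8 and 9.62 CPM in KO and 2.28 CPM in WT (log2 2.35, adjusted p = 0.0418). These 2 rested on 10 and 9 counts in WT. Flvcr2, a membrane transporter gene, had 51.0 and 64.1 CPM in KO and 20.0 CPM in WT (log2 1.52). S100g, which encodes a calcium-binding protein, had 57.3 and 57.7 CPM in KO and 21.8 CPM in WT (log2 1.40). Taf7l, a germ cell relative of the TFIID subunit gene Taf7, had 19.7 and 21.4 CPM in KO and 7.34 CPM in WT (log2 1.48). The naming rule required both KO samples of these genes to lie above WT. The calls of Srgn, Hkdc1, S100g and Taf7l were lost without 2h and also without 2i, and that of Flvcr2 without 2i. That of Hs3st1 held in both fits, but all of these calls were lost with every library as its own sample. Among the other called genes, Slc26a2, a sulfate transporter gene, rose by 0.97 on the log2 scale, Ctsl, for the lysosomal protease cathepsin L, by 0.69, and Lrpap1, a chaperone gene of LDL receptor relatives, by 1.20. Glul, for glutamine synthetase, rose by 0.76, Pcgf5, for a Polycomb repressive complex subunit, by 1.32, and Elp6, for an Elongator subunit, by 0.91. Slc26a2 and Lrpap1 kept their calls without 2h and without 2i. Ctsl and Pcgf5 lost theirs without 2i, and Glul and Elp6 lost theirs in both fits. B4galt6, Ank, Lrrc17, Tatdn1, Spock1, Bc1, 2010204K13Rik, Gm8994 and Gm21761 were also called higher. Of these, only 2010204K13Rik kept its call both without 2h and without 2i. Gm364 (38 and 60 counts in KO and 1 in WT) and Ankrd33b (40 and 26 counts in KO and 1 in WT) were called on a single WT count, and no fold is given for them. With Dlc1, Epas1 and Cyp26a1, described below, these make up the 42. The median log2 fold change of a chromosome's genes was within 0.05 of 0 for the autosomes and X.

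Among the 16 genes called lower, Tfap2b (chromosome 1, 19208914 to 19238576), which encodes the transcription factor AP-2β of neural crest and kidney, differed the most of those named by the rule. It had 5.73 and 2.81 CPM in KO and 29.6 CPM in WT, from 30, 14 and 117 counts (log2 -2.78, SE 0.43, 95% interval -3.66 to -1.90, edgeR adjusted p = 0.0013). It was higher in WT after RA than in untreated WT (log2 4.30, adjusted p = 3.81e-08), and untreated samples held 0.975 to 1.80 CPM in KO and 2.87 and 0.910 CPM in WT. Nr2f1 (chromosome 13, 78188973 to 78199757), an orphan nuclear receptor gene that RA induces in neural and neural crest cells, had 89.6 and 80.7 CPM in KO and 180 CPM in WT (log2 -1.08, SE 0.18, adjusted p = 0.00194). Its untreated levels were 11.7 to 16.6 CPM in KO and 14.3 and 13.3 CPM in WT. Both genes were therefore well above their untreated level in WT after RA and reached a lower level in KO. Tshz1, a zinc finger homeobox gene, also followed this pattern, at 162 and 167 CPM in KO and 280 CPM in WT (log2 -0.77, adjusted p = 0.0148), against 9.75 to 16.0 CPM in untreated KO and 10.2 and 12.3 CPM in untreated WT. The difference between the KO effects passed for Nr2f1 and Tshz1 (edgeR adjusted p = 0.0232 and 0.0271) and not for Tfap2b (adjusted p = 0.0973). The call of Tfap2b held in 15 of 18 alternative analyses, that of Nr2f1 in 16 of 19 and that of Tshz1 in 13 of 19. All of these calls were lost without 2i, and that of Tshz1 also without 2h.

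No other gene of the neural and neural crest lists was called. Over the neural crest and surface ectoderm list 2 of 20 members were called lower (Tfap2b and Nr2f1) and 0 higher, with a median log2 of -0.19 and 4 of 20 values positive. The background of genes called lower was 0.109%. Tfap2b was a given marker of this comparison from earlier results of these data, so the count is not independent evidence. Tfap2a, the closest relative of Tfap2b, had 3.82 and 2.00 CPM in KO and 2.53 CPM in WT, Sox9 had 227 and 242 CPM in KO and 265 CPM in WT, and Sox10 had 6, 1 and 0 counts in 2h, 2i and WT. Of 29 neuroectoderm and neuronal genes, 0 were called either way in edgeR (3 at an unadjusted p under 0.05, median log2 -0.26). Pax6, a neural factor gene, had 13.0 and 13.2 CPM in KO and 15.7 CPM in WT (log2 -0.26, adjusted p = 0.977), and Nes, for the progenitor filament nestin, had 155 and 174 CPM in KO and 168 CPM in WT. Genes outside these lists were also called lower. Crmp1, for a protein of axon guidance signalling, had 16.6 and 14.8 CPM in KO and 35.4 CPM in WT (log2 -1.17, adjusted p = 0.0196), and Slc1a3, a glial glutamate transporter gene, had 36.9 and 22.4 CPM in KO and 61.8 CPM in WT (log2 -1.06, adjusted p = 0.0266). Mgmt, a DNA repair gene, had 15.3 and 16.6 CPM in KO and 35.7 CPM in WT (log2 -1.16), and Ndufc2, for a subunit of respiratory complex I, 50.8 and 63.9 CPM in KO and 105 CPM in WT (log2 -0.88). Pclaf, for a factor bound to the replication clamp PCNA, had 103 and 82.3 CPM in KO and 173 CPM in WT (log2 -0.90, adjusted p = 0.00353). The naming rule required both KO samples of these called genes to lie below WT, and each gene lost its call without 2i. Tcim (log2 -1.54), Msantd4 (log2 -0.89), the RefSeq lncRNA Gm32885 (log2 -1.43) and the RefSeq pseudogene Gm9531 (log2 -1.56) were also called lower. Gm25394, annotated as a snoRNA, had 0 and 0 counts in KO and 15 in WT, and Set and Lrrn4 complete the 16. Reads of a pseudogene may be split with its parent gene, so the level of Gm9531 is uncertain.

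Few genes that handle or answer RA were called. Cyp26a1 (chromosome 19, 37697798 to 37701536), which encodes the enzyme that degrades RA, was called higher, at 200 and 219 CPM in KO and 111 CPM in WT (log2 0.91, SE 0.18, edgeR adjusted p = 0.0143). It is the gene printed above with paired repeats before its start. Without RA its levels were 21.8 to 33.2 CPM in KO and 20.7 and 25.5 CPM in WT (log2 0.25). The difference between the KO effects did not pass (log2 0.67, edgeR adjusted p = 0.231). The call after RA held in 13 of 19 alternative analyses and was lost without 2h and without 2i. Over the list of RA metabolism, receptors and early targets 1 of 25 was called higher (Cyp26a1) and 1 lower (Tshz1), with a median log2 of -0.07. The shares over all tested genes were 0.287% higher and 0.109% lower. Rarb, a receptor gene induced by RA, had 9 and 11 counts in KO and 4 in WT (log2 0.93, SE 1.09, adjusted p = 0.968), too few for a comparison at this depth. Stra8, named for its stimulation by RA, had 120 and 148 CPM in KO and 94.4 CPM in WT (adjusted p = 0.703). Among 22 tested Hox genes 0 were called in edgeR (6 at an unadjusted p under 0.05), and 5 had a positive log2 fold change, with a median of -0.35. Hoxc6, the member with the smallest p, had 46.0 and 52.7 CPM in KO and 99.7 CPM in WT (log2 -1.01, adjusted p = 0.0522). Before RA the Hox median was 0.42 with 3 of 22 called higher, against 5.98% of all tested genes, so the sign of the median differed between conditions. The difference of the KO effects was called lower for 2 of the 22, and for 0.744% of all tested genes.

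The effect of the KO before RA gives a baseline from other samples of the same set. There 1524 genes were called (10.4%), 876 higher (5.98%) and 648 lower (4.42%). Of the 42 genes called higher after RA, 30 were also called higher before RA, which is 71.4% of the 42 and 3.42% of the 876. Of the 16 called lower after RA, 6 were also called lower before, 37.5% of the 16 and 0.926% of the 648. Of the 58, 19 were not called before RA. The 876 genes higher before RA had a median log2 of 0.84 before and 0.12 after RA, and 64.7% of them kept a positive sign, against 49% of all tested genes. Those lower before RA had a median of -0.59 before and -0.07 after RA, and 60.8% kept a negative sign, against 50.8% of all tested genes. Genes chosen for a call before RA have their medians there raised by that choice, and the 2 conditions share 1 fit but no sample.

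**Figure D3:**
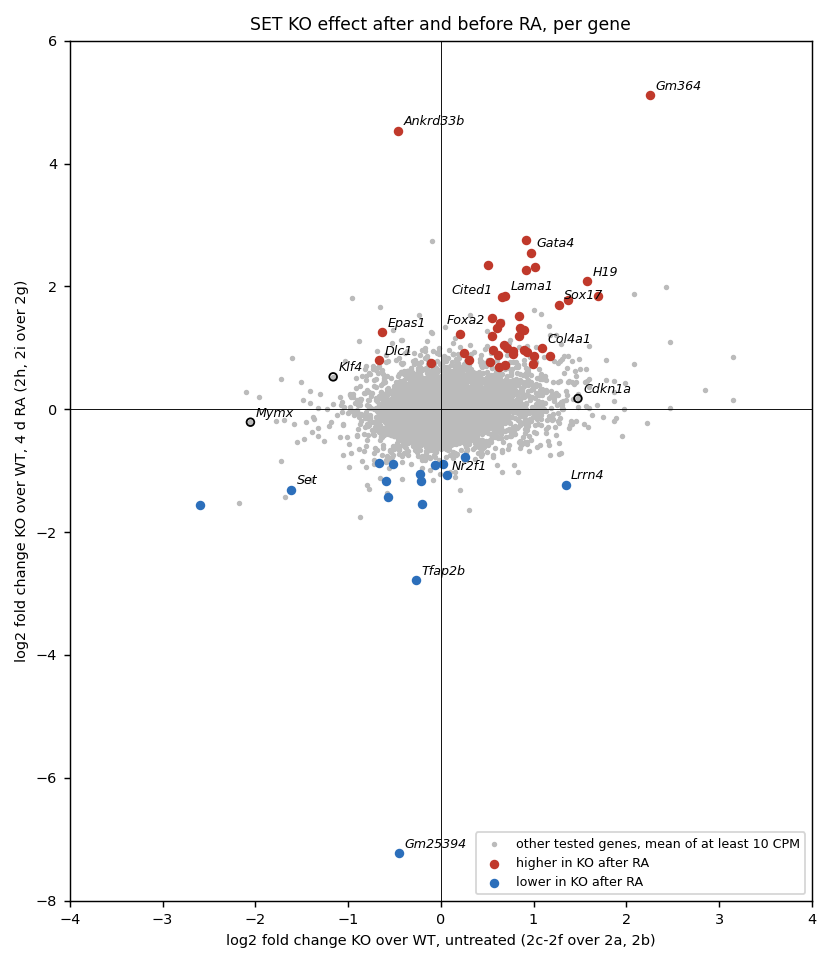
Log2 fold change of KO over WT after 4 d RA (vertical axis) against the same before RA (horizontal axis), 1 point a gene; red and blue mark the 42 genes called higher and the 16 called lower after RA, and grey the other tested genes that average 10 CPM or more over the 9 samples. Most red points lie right of 0, Epas1 and Dlc1 lie left of it, and the ringed Cdkn1a, Klf4 and Mymx were not called after RA; the fitted values of Gm364, Ankrd33b and Gm25394 rest on 0 or 1 count in a group.

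The difference between the KO effect after RA and that before RA was tested itself and called for 160 genes (1.09%), 51 with a higher effect after RA (0.348%) and 109 with a lower one (0.744%). Of the 51, 39 had been called lower in KO before RA and were not called after it. Of the 109, 98 had been called higher before RA and were not called after it. Most called differences were thus genes whose KO effect was called before RA and not after. The difference is computed from the same untreated values as the call before RA, so part of this overlap is built in. Cdkn1a, the p53-activated cell cycle inhibitor gene, had 548 and 660 CPM in KO and 535 CPM in WT after RA (log2 0.18, SE 0.15, 95% interval -0.13 to 0.48). Without RA its levels were 184 to 217 CPM in KO and 72.4 and 66.8 CPM in WT (log2 1.48), and the difference was -1.30 (SE 0.18, edgeR adjusted p = 0.000277). The level in WT after RA exceeded that of every untreated KO sample. Plk2, another p53 target (chosen after its values were seen), had a difference of -0.83 (adjusted p = 0.0213), with a log2 fold change of 0.22 after RA. Mdm2, the gene of the ubiquitin ligase for p53, had 706 and 761 CPM in KO and 680 CPM in WT after RA (log2 0.11), and its difference of -0.71 did not pass (adjusted p = 0.0928). Of 39 tested p53 targets 0 were called after RA in edgeR (0 at an unadjusted p under 0.05, median log2 0.09), 15 were called higher before RA, and for 5 the difference was called lower. Over all tested genes 0.396% were called after RA and 5.98% were called higher before RA, and the difference was called lower for 0.744%. Trp53 itself had 48.9 and 48.1 CPM in KO and 52.4 CPM in WT (log2 -0.11, adjusted p = 0.981).

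Pluripotency genes showed the opposite signs before RA. After RA, 0 of 34 were called in edgeR (5 at an unadjusted p under 0.05, median log2 0.10), where before RA 26 were called lower and 1 higher (median -0.61), and the difference was called higher for 5. Over all tested genes 0.396% were called after RA. Before RA 4.42% were called lower and 5.98% higher, and the difference was called higher for 0.348%. Klf4, chosen after its values were seen, had 73.7 and 81.7 CPM in KO and 53.9 CPM in WT after RA (log2 0.53, adjusted p = 0.398), against 167 to 248 CPM in untreated KO and 418 and 448 CPM in untreated WT. Its difference of 1.69 passed (adjusted p = 5.3e-05). Esrrb had 33.6 and 28.9 CPM in KO and 33.4 CPM in WT after RA, and its difference of 0.83 did not pass (adjusted p = 0.0645). Nanog had a log2 fold change of 0.19 (SE 0.29) after RA. Pou5f1 was counted at 0.955 and 0.601 CPM in KO and 0.759 CPM in WT after RA, at or near the floor of 3 counts (0.594 to 0.768 CPM). Untreated WT held 5.10 and 8.90 CPM, and reads that map to several places were not counted.

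**Figure D4:**
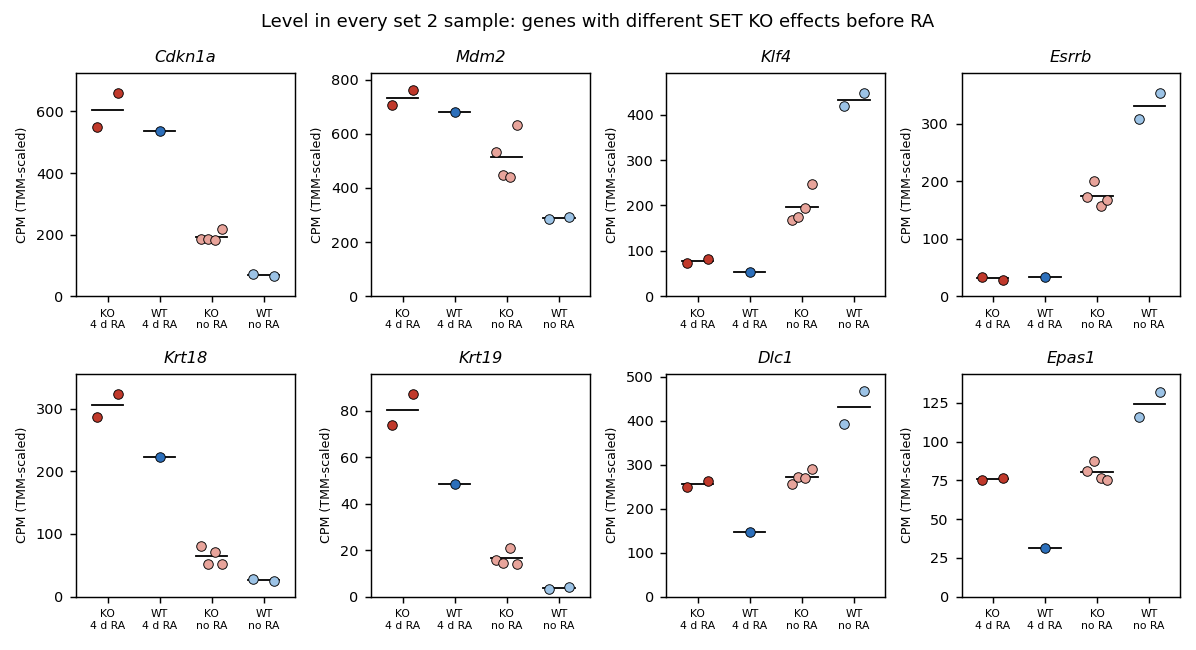
TMM-scaled CPM (vertical axes, from 0) of 8 genes in every set 2 sample, with KO and WT after 4 d RA and KO and WT without RA from left to right; points are samples and bars are group means. Cdkn1a, Mdm2, Klf4 and Esrrb separate KO from WT without RA, and of these the difference between the KO effects passed its test for Cdkn1a and Klf4; Dlc1 and Epas1 are lower in KO without RA and higher in KO after RA.

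A call in both conditions with opposite signs was found for 3 genes. Epas1 (chromosome 17, 86753700 to 86833410), which encodes the hypoxia factor HIF-2α, had 74.9 and 76.5 CPM in KO and 31.6 CPM in WT after RA (log2 1.26, SE 0.19, edgeR adjusted p = 0.000929). Before RA it had 75.0 to 87.7 CPM in KO and 116 and 132 CPM in WT (log2 -0.63), and the difference was 1.89 (adjusted p = 4.82e-05). Its KO values with and without RA overlapped, while WT was lower with RA. Dlc1, for a GTPase-activating protein, had 249 and 262 CPM in KO and 147 CPM in WT after RA (log2 0.80), 256 to 290 CPM in untreated KO and 393 and 467 CPM in untreated WT (log2 -0.67). Its difference was 1.46 (adjusted p = 5.5e-05). Lrrn4 went the other way, with 19.9 and 16.6 CPM in KO and 42.8 CPM in WT after RA (log2 -1.23, adjusted p = 0.0461), and 35.3 to 62.8 CPM in untreated KO against 15.3 and 19.1 CPM in untreated WT (log2 1.34). Its call after RA is marginal, held in 9 of 19 alternative analyses and was lost without 2h (adjusted p = 0.173) and without 2i (adjusted p = 0.523, the highest of its alternatives). In all, 12 of the 58 genes called after RA also had a called difference, where 1.09% of all tested genes had one. Both tests use the same RA samples, so part of this overlap is built in. Among the 12 were Lama1 (difference 1.15, adjusted p = 0.03), Glul (difference 0.86), Nr2f1 (difference -1.14), Grb10 (difference -0.84), Pclaf (difference -0.92) and Tshz1 (difference -1.03). For Lamb1 the difference was near 0 (95% interval -0.37 to 0.36), and for Col4a1 it was -0.10 (adjusted p = 0.918).

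The lists that bear on β-catenin and PP2A had no called member after RA. Over all tested genes 0.396% were called after RA, so 0 calls in lists of this size is near that share. Of 32 Wnt and β-catenin targets and antagonists 0 were called in edgeR (4 at an unadjusted p under 0.05, median log2 -0.05), where 9 were called higher and 3 lower before RA. Over all tested genes those shares before RA were 5.98% and 4.42%. Ctnnb1, the gene of β-catenin, had 25.6 and 38.3 CPM in KO and 38.5 CPM in WT (log2 -0.27, SE 0.24, adjusted p = 0.954), so that 2h was lower and 2i was level with WT. Axin2, a feedback target, had 35.0 and 41.9 CPM in KO and 46.1 CPM in WT (log2 -0.26, adjusted p = 0.962). Of 25 PP2A subunits and regulators 0 were called (0 at an unadjusted p under 0.05, median log2 -0.03). Among 26 histone chaperones and SET relatives 1 was called lower, Set itself, and 0 higher, with a median of -0.11. The share called lower after RA over all tested genes was 0.109%.

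Lists with a call after RA besides those above were few, where 0.287% of all tested genes were called higher. Formative and primed pluripotency genes had 2 of 23 called higher (Cldn6 and Epcam) and 0 lower, with a median log2 of 0.24. The list of primitive streak, mesoderm and definitive endoderm held 3 of 21 called higher and 0 lower, but Foxa2, Sox17 and Gata4 are also on the endoderm list. T, the brachyury gene of the streak, had 4.39 and 4.41 CPM in KO and 4.05 CPM in WT. Germline and early cleavage genes had 1 of 13 called higher (Taf7l) and 0 lower, with a median of 0.34. The other lists had 0 calls in edgeR. They were BMP and TGF-β targets (25 genes, median -0.24, 7 at an unadjusted p under 0.05), smooth muscle and contractile genes (26, median 0.03, 2), interferon response and antigen processing (22, median 0.07, 1), mitosis and DNA replication (37, median 0.00, 2) and glycolysis and hypoxia (28, median 0.11, 4). Cholesterol synthesis (24, median -0.08, 3), unfolded protein and amino acid stress (24, median 0.10, 1), apoptosis regulators (24, median 0.08, 0) and ribosomal proteins (40, median -0.01, 1) likewise had 0. Before RA, 13 of the 26 contractile genes and 10 of the 22 interferon and antigen processing genes had been called higher in KO, against 5.98% of all tested genes. The peptide transporter gene Tap1, chosen after its values were seen, had 64.0 and 73.7 CPM in KO and 68.1 CPM in WT after RA, against 21.8 to 33.2 CPM in untreated KO and 10.8 and 7.69 CPM in untreated WT (difference -1.58, adjusted p = 0.00582).

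**Figure D5:**
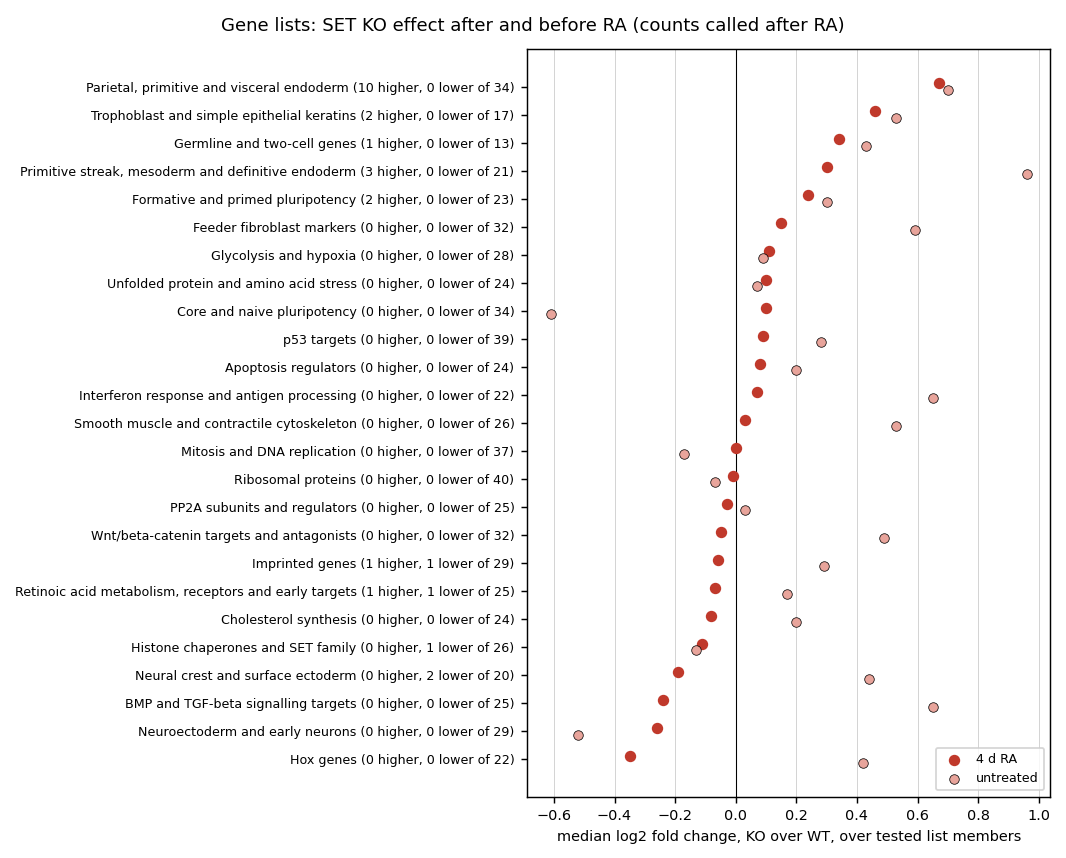
Median log2 fold change of KO over WT (horizontal axis) over the tested members of each of 25 gene lists (vertical axis), after 4 d RA in dark red and untreated in pale red; the counts in brackets are members called after RA. The endoderm list has the highest median after RA (0.67), with 10 of 34 called higher, and the pluripotency list stands at 0.10 after RA and at -0.61 without it.

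Untreated libraries of this set fell into 2 sub-batches, A and B, along the leading principal component once group means were removed (38.2% of the variance). Both held WT, KO1 and KO2 libraries, the titles do not name them, and the sub-batch of the RA libraries is not known. Across 9094 genes the KO effect after RA had r = 0.002 with the A over B log2 ratio, where the KO effect before RA had r = -0.45. Genes are not independent replicates, and the sub-batches were drawn from these same untreated libraries. Single called genes did differ between the sub-batches, with A over B log2 ratios from -1.15 (Flvcr2) to 0.71 (Gm8994). With the untreated libraries of A alone 164 genes were called after RA, and with those of B alone 160, the 58 among them in both. The RA samples are the same in these fits, so what differed was the spread.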

How the data were processed

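Values were raw counts per gene that the authors made with featureCounts 1.6.0 on Ensembl 97 of GRCm38, per the file headers, with no strand or multi-mapping option in the command. Reads of overlapping or antisense genes therefore cannot be told apart. Alignment used STAR 2.5.4b, and Subread 2.0.0 is also named, per the submitters' processing notes. The sources used here do not give read trimming. Of 55573 gene identifiers, 55394 had a symbol, and mitochondrial genes had 0 counts.

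Libraries that share a title code were summed, which left 9 samples in the second set (13 libraries). A floor of 3 counts was 0.768 CPM in 2g, 0.594 in 2h and 0.612 in 2i. The quasi-likelihood F test of edgeR 4.0.16 (R 4.3.3, TMM, filterByExpr with minimum count 10 and minimum total 15, robust) was fitted on group means of those 9 samples with 4 residual degrees of freedom, and p-values were adjusted by Benjamini-Hochberg over 14659 genes at 0.05. The WT group after RA has 1 library, so the spread came from the other groups, and that library is assumed to vary like them. The difference of KO effects set the RA contrast against the mean of KO1 and KO2 over untreated WT. The same fit was tested on simulated data with known changes.

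Members and gene lists were chosen with earlier results of these data known. Named genes were 17 key or given genes, the 12 highest and 12 lowest called log2 fold changes with at least 10 CPM in the higher group (predicted genes left out), up to 5 called members a list, and the 6 highest and 6 lowest differences. The 12 highest and 12 lowest also had to have both KO samples on the same side of WT, so that agreement was set by the rule. Other genes are described as chosen after their values were seen, or belong to the 58 called genes or to a list. Alternatives were DESeq2 1.42.0 size factors and Wald test, no filter, other ways of entering libraries and samples, a replicate block, and each sample left out. Promoter windows came from RefSeq (GRCm38.p6). Set tests were not run. Some genes that the naming rule selects are left out of the text. Python 3.11.15, pandas 2.3.3, numpy 2.4.6 and matplotlib 3.10.9 were used.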

Additional observations from a re-analysis of the deposited data

Results flagged for a closer look

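The KO effect after RA differed from that before RA, by the edgeR test of the difference itself, for 18 of the genes that the naming rule chose. They are given here as the log2 effect after RA minus that before RA. Other genes in the text, such as Klf4, Dlc1, Glul, Plk2 and Tap1, also had a called difference and are not listed here. Differences above 0 were 2.44 for Sall3, 2.22 for Rapgef3, 2.05 for Sgms2, 1.89 for Epas1, 1.84 for Mymx, 1.80 for Caprin2 and 1.15 for Lama1. Sall3, a zinc finger factor gene, had 5.54 and 6.21 CPM in KO and 3.29 CPM in WT after RA, against 6.85 to 13.6 CPM in untreated KO and 30.9 and 38.8 CPM in untreated WT. These untreated WT values sum unlike libraries, with 55.7 and 46.9 CPM in sub-batch A and 9.8 and 9.64 CPM in sub-batch B. The WT libraries of B lay within the 6.79 to 19.3 CPM of the untreated KO libraries. Mymx, a myoblast fusion gene, had 3.82 and 3.61 CPM in KO and 4.30 CPM in WT after RA, against 15.7 to 23.8 CPM in untreated KO and 78.1 and 80.2 CPM in untreated WT. Of these 7 genes, Epas1 and Lama1 were called after RA.

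Differences below 0 were -2.84 for Vgf, -2.57 for Lrrn4, -2.53 for Nefm, -2.44 for Matn4, -2.39 for Tap2, -2.35 for Igf1, -1.30 for Cdkn1a, -1.14 for Nr2f1, -1.03 for Tshz1, -0.92 for Pclaf and -0.84 for Grb10. Nefm, a neurofilament gene, had 4.39 and 7.01 CPM in KO and 4.56 CPM in WT after RA, against 13.6 to 33.2 CPM in untreated KO and 3.51 and 3.03 CPM in untreated WT. Tap2, a peptide transporter gene of antigen processing, had 26.0 and 24.2 CPM in KO and 33.9 CPM in WT after RA, against 37.3 to 45.8 CPM in untreated KO and 10.8 and 10.9 CPM in untreated WT. Its single untreated libraries spread more and overlapped, with 11.8 to 52.8 CPM in KO and 6.46 to 26.6 CPM in WT. In sub-batch A they held 11.8 to 42.5 CPM in KO and 7.65 and 6.46 CPM in WT. In sub-batch B they held 45.4 to 52.8 CPM in KO and 13.3 and 26.6 CPM in WT. Igf1, which encodes insulin-like growth factor, had 10.7 and 9.21 CPM in KO and 25.1 CPM in WT after RA, and its KO effect there did not pass (log2 -1.33, edgeR adjusted p = 0.0732). Matn4, for a matrix protein, had 28.6 CPM in both KO samples and 28.1 CPM in WT after RA, with 0.319 and 1.11 CPM in untreated WT.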

How the results depend on the processing

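The 58 calls after RA (42 higher, 16 lower) moved most with how libraries entered the fit. They were 8 (7 and 1) with each library taken as a sample, 55 (39 and 16) with sub-batch added to that fit, 27 (20 and 7) with the first library of a title code, 201 (137 and 64) with only the 3 RA samples, 94 (71 higher) with no filter, and 10 lower with the DESeq2 Wald test. Leaving out samples gave 15 to 98 calls, 14 to 70 higher and 1 to 28 lower, with 15 without 2i, 34 without 2h, 94 without 2e and 98 without 2f. In analyses added, like the sub-batch term, after seeing the data, sub-batch A alone gave 164 (112 and 52) and B alone 160 (113 and 47). The 160 differences of KO effects were 102 with DESeq2, 284 with no filter, 2 with each library taken as a sample (135 with sub-batch), 56 with first libraries, 336 and 380 with A or B alone, and 27 to 388 with samples left out (27 without 2h or without 2b, 59 without 2i, 95 without 2a, 388 without 2f). The 1524 calls before RA were 931 with DESeq2, 916 with each library taken as a sample (1767 with sub-batch), 915 with first libraries and 381 to 2134 with samples left out (381 without 2b, 837 without 2a). Of the 1090 values of the called genes under alternatives, 837 kept their call, 253 lost it and 0 reversed. Gata4 and Tfap2b had no adjusted p with DESeq2.

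The replicate block left 2 calls after RA (2 higher, Lama1 and H19, and 0 lower), 1 difference and 676 calls before RA. Titles of the RA libraries share no replicate numbering with the untreated ones, so the numbers cannot pair KO and WT after RA. Same-numbered untreated WT and KO2 libraries deviated together (r of 0.20 to 0.30, and each pair in 1 sub-batch), while KO1 libraries had r of -0.31 to -0.09 with either.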
